A study of Rattus norvegicus with 6 samples.

Results

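The genes examined were the 10 BMP (bone morphogenetic protein) genes Bmp2, Bmp4, Bmp5, Bmp6 and Bmp7, which encode secreted ligands, Bmpr1a, Bmpr1b and Bmpr2, which encode receptors, and Nog and Grem1, which encode secreted antagonists. They were chosen by symbol among the 29468 gene symbols of the tables, and all 10 were listed. RNA-seq compared Schwann cell precursors (SCPs) with repair Schwann cells (RSCs), both from rats of the LEWIS strain and taken here as wild type. The study's methods name wild type LEWIS rats for its experiments and transgenic LEWIS rats with a red fluorescent protein for grafted cells. They do not state which gave the sequenced cells. The SCPs came from sciatic nerves and brachial plexus of both sides in untreated embryos at embryonic day 14. The RSCs came from distal sciatic nerve stumps of rats aged 10 weeks, 1 week after the nerve had been cut. Each group had 3 libraries, the number of animals behind a library is not given in the labels, and both cell preparations were dissociated with enzymes before RNA extraction. By the study's methods the digestion was longer and at a higher collagenase concentration for the adult nerves, and cells that stuck to uncoated flasks, such as fibroblasts and macrophages, were discarded. Age, injury, nerve region and digestion therefore differed together between the groups and cannot be told apart.

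BMPs are dimeric ligands of the TGF-beta superfamily. A BMP binds a complex of type I receptors, such as those encoded by Bmpr1a and Bmpr1b, and type II receptors, such as that encoded by Bmpr2, and the type I receptor phosphorylates SMAD1, SMAD5 and SMAD9, which enter the nucleus with SMAD4 and act on target genes such as the Id genes. Noggin and gremlin 1 bind BMPs outside the cell and keep them from the receptors. In the developing peripheral nervous system BMP signals act on neural crest cells and on the specification of autonomic neurons, and BMP2 and BMP7 have been studied as signals in injured nerves.

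Expression was given as FPKM, fragment counts corrected for transcript length and for the mapped total of a library, a scale on which genes of different length can be compared. The tables held named reference transcripts and, in each library, transcripts without a gene name that Cufflinks had assembled from the reads of that library. Their part of all FPKM was 26.1% to 31.9% in the SCPs and 18.6% to 23.4% in the RSCs. Absolute depth is unknown, and relative depth, taken from coverage per FPKM, was 0.88 to 1.00 in the SCPs and 0.79 to 0.84 in the RSCs. Unnamed transcripts lay over 6 of the 10 BMP genes, 21 in all, so levels were taken from the named transcripts alone and again with each unnamed transcript added to the named gene it overlapped most. Libraries of a group correlated across genes at r = 0.88 to 0.90 and libraries of different groups at 0.67 at most, so no library was close enough to another to be a repeat of it.

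Sox10, a transcription factor that marks the Schwann cell lineage, was listed at 175 to 181 FPKM in the SCPs and 143 to 149 FPKM in the RSCs. It was the 1 of 10 Schwann cell markers called higher in the SCPs, while 5 were higher in the RSCs, such as S100b at 3.21 to 19.3 against 782 to 924 FPKM. The summed level of the 10 was 460 to 527 FPKM in the SCPs and 2128 to 2691 FPKM in the RSCs. Other cells differed with the group. The summed level of 9 leukocyte and macrophage markers was 13.3 to 39.2 FPKM in the SCPs and 2729 to 2956 FPKM in the RSCs, with all 9 higher in the RSCs, and that of 9 fibroblast markers was 848 to 1188 against 5423 to 8080 FPKM, with 7 of the 9 higher in the RSCs and 1 higher in the SCPs. The summed level of 5 skeletal muscle markers was 60.6 to 252 FPKM in the SCPs and 23.2 to 29.8 FPKM in the RSCs, with 4 of the 5 higher in the SCPs, 1 (Des) higher in the RSCs and Myod1 at 0 in every RSC library. The 5 listed erythroid markers summed to 17547 to 78426 FPKM in the SCPs and 448 to 641 FPKM in the RSCs, with 3 higher in the SCPs and none called higher in the RSCs. SCP3 stood apart in these, with Hbe1, an embryonic globin gene, at 68200 FPKM against 16880 FPKM in SCP1 and 13850 FPKM in SCP2. Without SCP3 the log2 differences (RSC minus SCP) of Bmp4 and Bmp5 were -2.21 and -1.75, against -2.20 and -1.77 with it. Both stayed called. Other BMP genes moved more with named transcripts. Bmpr1b went from -1.29 to -2.07 and was then called. Bmpr1a went from -0.17 to -0.65 and Bmp7 from 0.19 to -0.03, and neither was called. Hbe1 was also high in SCP1 and SCP2, so leaving out SCP3 does not test the part of erythroid cells. The 6 cartilage and skeletal mesenchyme markers summed to 102 to 137 against 14.5 to 21.5 FPKM, with Matn1 at 0 in every RSC library, and the 5 neuron markers to 26.3 to 48.5 against 17.5 to 23.9 FPKM, with Elavl4 and Isl1 at 0 in every RSC library. In both the cartilage and the neuron list 2 genes were higher in the SCPs and none passed the test in the other direction. Fewer cells of a type and less RNA per cell cannot be told apart in such bulk samples, and the part of other cells in the BMP values was not tested.

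The promoters of Bmp4, Nog and Grem1 are shown because these genes, a ligand and both antagonists, were higher in the SCPs by the values given further on. They are the 250 bases before the RefSeq transcription start on the GRCr8 assembly, all on the minus strand, at chr15:22101934-22102183 for Bmp4, chr10:74627502-74627751 for Nog and chr3:120978320-120978569 for Grem1, a different assembly from the one the reads were mapped to. Capitals mark GGCGCC, a GC-rich palindrome known as a binding sequence of BMP-activated SMADs.

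Bmp4: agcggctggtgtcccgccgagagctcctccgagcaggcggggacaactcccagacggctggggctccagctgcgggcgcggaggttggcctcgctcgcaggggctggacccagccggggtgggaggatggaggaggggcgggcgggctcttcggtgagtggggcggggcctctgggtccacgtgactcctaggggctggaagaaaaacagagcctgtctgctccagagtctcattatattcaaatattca
Nog: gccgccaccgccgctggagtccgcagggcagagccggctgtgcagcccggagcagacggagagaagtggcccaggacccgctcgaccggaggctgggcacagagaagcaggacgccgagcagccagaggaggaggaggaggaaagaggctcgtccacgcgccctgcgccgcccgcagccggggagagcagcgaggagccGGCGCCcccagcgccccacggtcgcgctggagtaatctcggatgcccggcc
Grem1: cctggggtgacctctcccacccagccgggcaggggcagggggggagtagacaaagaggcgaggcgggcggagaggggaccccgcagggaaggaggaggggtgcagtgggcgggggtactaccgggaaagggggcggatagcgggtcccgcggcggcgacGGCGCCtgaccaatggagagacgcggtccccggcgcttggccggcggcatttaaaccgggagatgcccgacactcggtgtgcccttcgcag

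The motif GGCGCC occurred once in the Nog promoter, with its first base 51 bases before the start, and once in that of Grem1, 91 bases before the start. Bmp4 had none in this window. Among the 7 BMP genes with a promoter sequence, Nog and Grem1 were the 2 that held it, and 8.69% of all 33469 promoters did. The other SMAD-bound palindrome searched, GTCTAGAC, was in none of the 7 and in 0.173% of all promoters. Both motifs read the same on either strand. Base composition was 66.4% G or C in the Bmp4 window, 74.0% in that of Nog and 72.0% in that of Grem1. A match describes these letters only. No promoter was printed for Bmp2, Bmp7 and Bmpr1b.

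Between the groups, Bmp4 and Bmp5 were lower in the RSCs by about an order of magnitude, Bmp6, Nog and Grem1 were low in the SCPs and at or near 0 in the RSCs, and Bmp7, the most abundant ligand, overlapped between the groups. Bmp2 stood out as the ligand with higher values in the RSCs. Of the receptors, Bmpr1b was close to 0 in the RSCs. With all libraries, the calls of Bmpr1a, Bmpr1b and Bmpr2 rested on counting the unnamed transcripts. Each gene was tested across all genes with limma on log2(FPKM + 1). Of the named levels, 7 of the 10 passed the filter of a mean of at least 1 FPKM, and Bmp6, Nog and Grem1 did not. At an unadjusted p under 0.01, 2 of the 7 (Bmp4 and Bmp5) were higher in the SCPs, where 22.4% of all 13003 tested genes were. By limma 0 of the 7 were higher in the RSCs, where 18.1% of all genes were, and Bmp2 was the 1 gene in that direction at an unadjusted p under 0.05. Benjamini-Hochberg adjusted p-values over all tested genes stand beside the differences that follow, while calls rest on the unadjusted p. With a log2 difference over 2 as well (4-fold), Bmp4 remained, and 3.78% of all genes passed in its direction. Bmp4, Bmp5 and Bmpr1b passed the filter through the SCPs alone, with RSC means under 1 FPKM, so both called genes carry this limit.

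With unnamed transcripts added and no filter, all 10 genes could be tested, in a fit chosen after seeing the data. Higher in the SCPs were 8 of them, where 26.0% of 20731 genes were, and Bmp2 was higher in the RSCs, where 17.6% of genes were. Bmp7 did not pass in either direction. Among the 8, Bmp4, Bmp5, Bmp6, Bmpr1b, Nog and Grem1 had RSC means under 1 FPKM. The median log2 difference (RSC minus SCP) of the 10 was -0.865 on this scale, and that of all genes was -0.099. The count in the SCPs was 6 after median-of-ratios scaling, where 19.3% of genes passed in that direction. It was 6 to 8 when any single library was left out, where 21.7% to 25.3% of genes passed. Bmp2 passed in each of these, where 16.3% to 22.0% of genes were higher in the RSCs. The groups did not overlap for 9 of the 10, 8 with higher values in the SCPs, as for 35.3% of all genes, and 1 with higher values in the RSCs, as for 23.2%. With named transcripts alone these numbers were 5 and 1, where 26.9% and 19.6% of all genes were apart in these directions. With unnamed transcripts and the filter of mean 1 FPKM, 5 of 7 genes were called higher in the SCPs, where 34.2% of genes were. Under that filter 1 was called higher in the RSCs, where 23.2% of genes were.

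**Figure D1:**
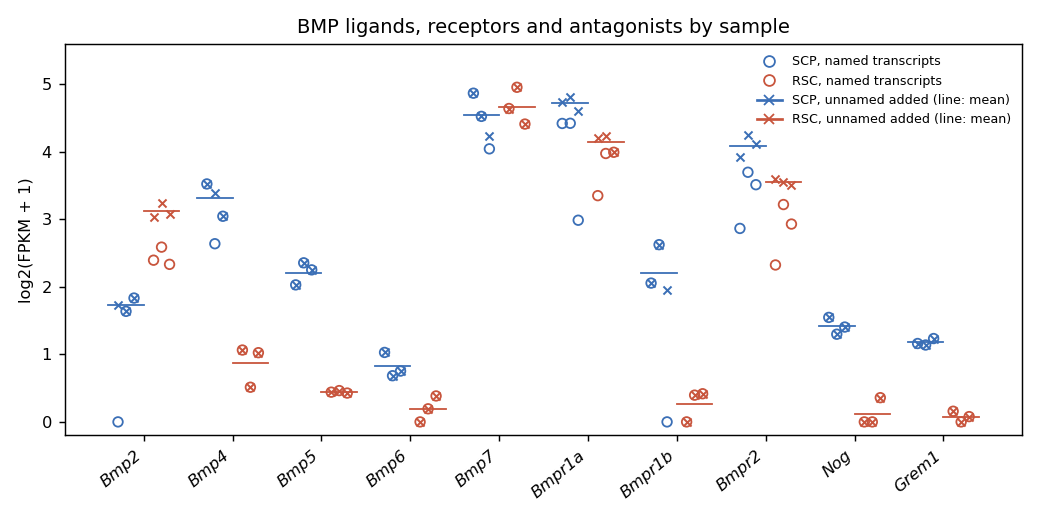
The level of each BMP gene in every library, as log2(FPKM + 1) on the vertical axis, with SCP libraries in blue and RSC libraries in red. Circles are named transcripts, crosses include unnamed transcripts, and lines are group means of the crosses. Bmp7 is high in all libraries, and Nog and Grem1 are at or near 0 in the RSCs.

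Bmp2 lies at chr3:126335963-126345881 on rn6, as do all gene positions that follow, and encodes a ligand known for bone formation and patterning. Its named transcripts were at 0, 2.11 and 2.57 FPKM in SCP libraries 1, 2 and 3 and at 4.26, 5.02 and 4.04 FPKM in RSC libraries 1, 2 and 3. The groups did not overlap, but the value of 0 in SCP1 stood apart from the other SCP values. An unnamed transcript over the gene in SCP1 carried 2.33 FPKM, and the RSC libraries each had one too. With these added, Bmp2 was at 2.33, 2.11 and 2.57 FPKM in the SCPs and at 7.24, 8.47 and 7.44 FPKM in the RSCs. The SCP values then lay close together and every RSC value was above them, with means of 2.34 ± 0.23 against 7.72 ± 0.66 FPKM (SD, n = 3 each) and a ratio of means of 3.30. The log2 difference was 1.28 (SE 0.51, adjusted p = 0.0891) with named transcripts and 1.38 (SE 0.15, adjusted p = 0.000457) with unnamed ones added and no filter. The call of Bmp2 thus rested on counting the unnamed transcripts. The named value of 0 in SCP1 entered the first of these tests.

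Bmp4, at chr15:20776060-20791014, encodes a ligand close to BMP2 in sequence that acts in mesoderm and neural crest development. It was listed at 10.5, 5.23 and 7.27 FPKM in SCP1, SCP2 and SCP3 and at 1.09, 0.428 and 1.04 FPKM in RSC1, RSC2 and RSC3. Every SCP library was well above every RSC library. The means were 7.67 ± 2.67 and 0.852 ± 0.368 FPKM, a ratio of 9.01. On the log2 scale the difference was -2.20 (SE 0.31, adjusted p = 0.00217). Without SCP1 it was -1.98 and below the 4-fold limit, and it stayed called with each library left out. SCP2 had a further 4.30 FPKM in an unnamed transcript over the gene, which brought it to 9.54 FPKM and the ratio of means to 10.7. Among the 7 named Bmp4 transcripts, the one of 1535 bases carried 7.18, 5.23 and 6.28 FPKM in the SCPs, most of the gene's level there, and 1.09, 0.428 and 0.543 FPKM in the RSCs.

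Bmp5, at chr8:82669466-82950273, encodes a ligand of the subgroup that also holds BMP6 and BMP7. Its single named transcript was at 3.08, 4.12 and 3.77 FPKM in the SCPs and at 0.357, 0.379 and 0.345 FPKM in the RSCs. The RSC values lay within a narrow range, far below the SCP values. The ratio of means was 10.1, and the log2 difference was -1.77 (SE 0.21, adjusted p = 0.0011). Adding 1 FPKM before the logarithm makes a difference at such low levels look smaller, and with 0.1 added in its place the log2 difference was -3.02.

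Bmp6, at chr17:26955142-27112820, a ligand known for the control of iron metabolism, was the ligand with the lowest mean in both groups. It was at 1.04, 0.607 and 0.686 FPKM in the SCPs and at 0, 0.144 and 0.305 FPKM in the RSCs. The groups did not overlap, but every value was near 1 FPKM or below. Without the filter the log2 difference was -0.63 (SE 0.15, adjusted p = 0.0248). In that test 5 of the 10 genes, namely Bmp4, Bmp5, Bmp6, Nog and Grem1, passed with higher values in the SCPs, where 16.8% of 20494 genes did, and 0 passed with higher values in the RSCs, where 13.4% of genes did and where 0 of the 10 had an unadjusted p under 0.05. With unnamed transcripts added elsewhere in the table Bmp6 kept its values, and it missed the threshold without SCP1, without SCP3, without RSC1 and without RSC2.

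Bmp7, at chr3:170879977-170955820, a ligand needed for kidney and eye development, behaved unlike the other ligands. It was listed at 28.3, 22.1 and 15.5 FPKM in the SCPs and at 24.0, 30.1 and 20.3 FPKM in the RSCs. The groups overlapped throughout. The log2 difference was 0.19 with a 95% interval from -0.43 to 0.81 (adjusted p = 0.57), and it turned to -0.03 without SCP3. The interval leaves room for a modest difference in either direction. After median-of-ratios scaling with unnamed transcripts the difference was 0.40 and did not pass.

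**Figure D2:**
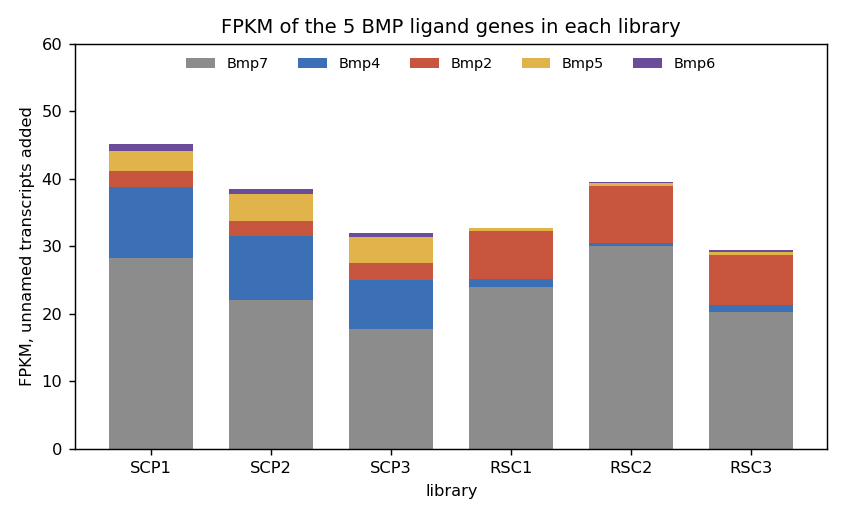
FPKM of the 5 BMP ligand genes in each library, stacked, with unnamed transcripts added, on the vertical axis and the library on the horizontal axis. The total is of similar size in all libraries, at 32.0 to 45.2 FPKM in the SCPs and 29.4 to 39.5 FPKM in the RSCs, and the blue Bmp4 and red Bmp2 segments change places in size.

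Summed over the 5 ligand genes with unnamed transcripts added, the level was 45.2, 38.4 and 32.0 FPKM in the SCPs and 32.7, 39.5 and 29.4 FPKM in the RSCs, so the summed ranges overlapped. The make-up of the sum differed in each library. Bmp7 made up 55.4% to 62.5% of it in the SCPs and 69.0% to 76.2% in the RSCs. Bmp4 held 22.7% to 24.8% in the SCPs and 1.08% to 3.52% in the RSCs, and Bmp2 held 5.16% to 8.01% and 21.4% to 25.3%. The Bmp4 to Bmp2 ratio was 4.51, 4.51 and 2.83 in the SCPs and 0.151, 0.0505 and 0.139 in the RSCs. The order of these closely related ligands was therefore opposite in the groups, in every library. These shares are ratios within a library, so scaling between libraries does not enter them.

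Bmpr1a, at chr16:10758526-10802512, encodes a type I receptor with wide expression. Its single named transcript was at 20.4, 20.5 and 6.94 FPKM in the SCPs and at 9.22, 14.8 and 14.9 FPKM in the RSCs. SCP3 was far below the other SCP libraries, and the groups overlapped. The log2 difference was -0.17 (SE 0.44, adjusted p = 0.781), and its sign turned positive, at 0.04 to 0.07, after median-of-ratios scaling and without SCP1, SCP2 or RSC1. SCP3 had the largest unnamed share at this gene, 70.3%, and RSC3 had none. With unnamed transcripts added the values were 25.7, 27.3 and 23.3 FPKM in the SCPs and 17.4, 17.9 and 14.9 FPKM in the RSCs. The SCP libraries then lay together and above all RSC libraries, with a ratio of means of 1.52 and a log2 difference of -0.58 (SE 0.11, adjusted p = 0.0047 with no filter). After median-of-ratios scaling it was -0.30 and no longer passed. The unnamed transcripts reached 49470 to 49719 bases past the end of the named gene, so they include sequence outside it. A further gene, LOC100912503, overlaps the lower end of Bmpr1a by position, and it was at 14.7, 15.0 and 10.7 FPKM in the SCPs and 8.78, 9.86 and 9.26 FPKM in the RSCs. The tables give no strand, so how reads of this overlap were divided is not known here.

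Bmpr1b, at chr2:247403821-247676541, encodes the type I receptor with the more restricted expression, known from limb and neural tissue. It was listed at 3.16, 5.17 and 0 FPKM in the SCPs and at 0, 0.316 and 0.335 FPKM in the RSCs. SCP3 at 0 lay below both higher RSC values, so the groups overlapped. The log2 difference was -1.29 (SE 0.70, adjusted p = 0.181), and it was -2.07 and passed the threshold without SCP3. An unnamed transcript over the gene in SCP3 held 2.87 FPKM. With it added, the SCPs were at 3.16, 5.17 and 2.87 FPKM, every one above the RSCs, and the log2 difference was -1.94 (SE 0.23, adjusted p = 0.000799 with no filter). It passed under both other scalings and with each library left out.

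Bmpr2, at chr9:66567630-66683019, encodes the type II receptor. Its named transcripts were at 6.29, 12.0 and 10.4 FPKM in the SCPs and at 4.01, 8.32 and 6.63 FPKM in the RSCs. SCP1 lay among the RSC values. The log2 difference was -0.53 (SE 0.33, adjusted p = 0.231). All 6 libraries had unnamed transcripts over the gene, with 22.2% to 64.1% of its level. With these added the gene was at 14.2, 18.0 and 16.3 FPKM in the SCPs and at 11.2, 10.7 and 10.4 FPKM in the RSCs. The groups were then apart, with a ratio of means of 1.50 and a log2 difference of -0.54 (SE 0.11, adjusted p = 0.00821 with no filter). It was -0.27 and did not pass after median-of-ratios scaling, and it narrowly missed the threshold without SCP3, RSC2 or RSC3. The differences of Bmpr1a and Bmpr2 were therefore small and depended on the scaling, while that of Bmpr1b did not.

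The 3 receptor genes together summed to 43.1, 50.4 and 42.5 FPKM in the SCPs and 28.6, 28.9 and 25.7 FPKM in the RSCs with unnamed transcripts added. Bmpr1a held 54.1% to 59.7% of the sum in the SCPs and 58.1% to 61.9% in the RSCs. Bmpr1b held 6.76% to 10.3% in the SCPs and at most 1.30% in the RSCs.

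Nog, at chr10:76811759-76813386, encodes noggin, which binds BMP2, BMP4 and BMP7. It was at 1.93, 1.46 and 1.65 FPKM in the SCPs and at 0, 0 and 0.283 FPKM in the RSCs. RSC1 and RSC2 were listed at 0 and RSC3 was far below the lowest SCP library. Its mean over all 6 libraries was 0.886 FPKM, under the filter. Without the filter the log2 difference was -1.30 (SE 0.17, adjusted p = 0.00267).

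Grem1, at chr3:105203309-105214989, encodes gremlin 1, an antagonist known from limb buds and from fibroblasts. It was at 1.24, 1.20 and 1.35 FPKM in the SCPs and at 0.116, 0 and 0.0558 FPKM in the RSCs. The SCP values lay close together, and RSC2 was listed at 0. The mean over 6 libraries was 0.661 FPKM, and without the filter the log2 difference was -1.10 (SE 0.12, adjusted p = 0.00115). No unnamed transcript lay over Nog or Grem1, so their values were the same in both tables. Together the antagonists summed to 3.16, 2.66 and 3.00 FPKM in the SCPs and 0.116, 0 and 0.338 FPKM in the RSCs. Both antagonist transcripts were thus lower in the RSCs while Bmp7 overlapped.

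**Figure D3:**
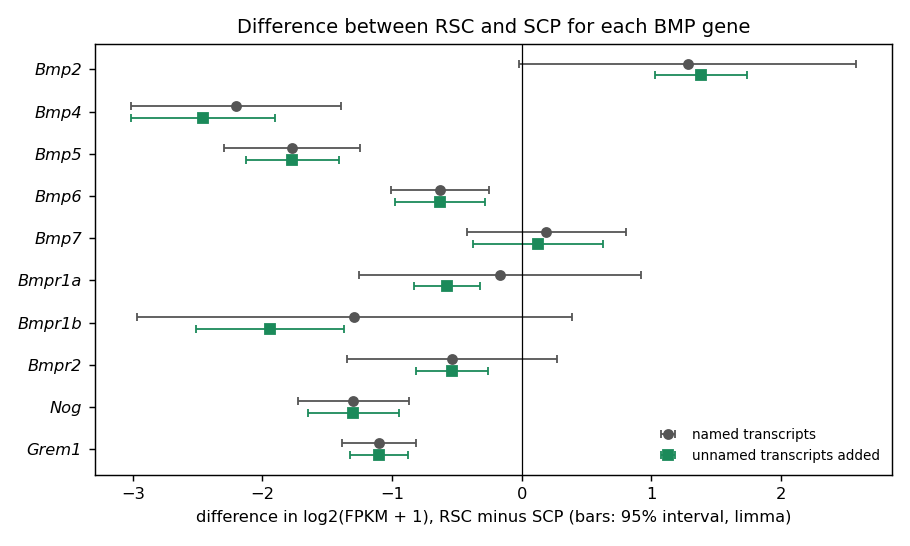
The difference in log2(FPKM + 1), RSC minus SCP, on the horizontal axis for each BMP gene, fitted with limma without a filter, with 95% intervals. Grey circles are named transcripts and green squares include unnamed transcripts. The intervals of Bmp2, Bmpr1a, Bmpr1b and Bmpr2 are shorter in green and exclude 0, and those of Bmp7 include 0 in both.

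In order of level with unnamed transcripts added, the SCPs had Bmpr1a, Bmp7, Bmpr2, Bmp4, Bmpr1b, Bmp5, Bmp2, Nog, Grem1 and Bmp6. The values of neighbours overlapped between Bmpr1a and Bmp7, between Bmp7 and Bmpr2, and between Bmpr1b and Bmp5, and the other neighbours were apart. The RSCs had Bmp7, Bmpr1a, Bmpr2, Bmp2, Bmp4, Bmp5, Bmpr1b, Bmp6, Nog and Grem1. Neighbours overlapped from Bmpr1b down and were apart above it. The same 3 genes led both orders, Bmp2 moved from the seventh place to the fourth, and in the RSCs the 6 genes from Bmp4 down had means under 1 FPKM.

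SMAD genes carry the signal inside the cell. Smad1 was at 13.9, 10.6 and 12.0 FPKM in the SCPs and at 13.5, 12.6 and 13.4 FPKM in the RSCs, and the groups overlapped (log2 difference 0.11, SE 0.14, adjusted p = 0.559). Smad5 was at 36.6, 53.5 and 43.0 FPKM in the SCPs and at 16.2, 7.52 and 6.53 FPKM in the RSCs, with a log2 difference of -2.12 (SE 0.34, adjusted p = 0.00379), or -1.38 with unnamed transcripts added. Smad9 was below 1 FPKM in all libraries, at 0.324 to 0.682 in the SCPs and 0.136 to 0.288 in the RSCs. Its groups did not overlap, and without the filter its log2 difference was -0.35 by limma (adjusted p = 0.0805). Among the receptor-activated SMADs Smad5 was thus called, and Smad1 and Smad9 did not pass the test. Smad4, the shared partner, was at 39.3, 28.9 and 31.9 FPKM in the SCPs and at 37.2, 18.9 and 34.9 FPKM in the RSCs (log2 difference -0.18, adjusted p = 0.634, with its sign turning positive under median-of-ratios scaling and with unnamed transcripts).

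Smad6 and Smad7 encode inhibitory SMADs that are themselves induced by the pathway. Smad6 was at 10.5, 10.8 and 3.72 FPKM in the SCPs and at 2.35, 1.78 and 0.686 FPKM in the RSCs. Smad7 was at 7.39, 5.33 and 4.24 FPKM in the SCPs and at 2.86, 2.30 and 2.02 FPKM in the RSCs. Both were higher in every SCP library, with log2 differences of -1.78 (adjusted p = 0.0218) and -0.95 (adjusted p = 0.0212). These calls were near the threshold, and each missed it after median-of-ratios scaling and with any single library other than SCP3 left out. With unnamed transcripts added Smad7 was at -1.35 (adjusted p = 0.000729).

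**Figure D4:**
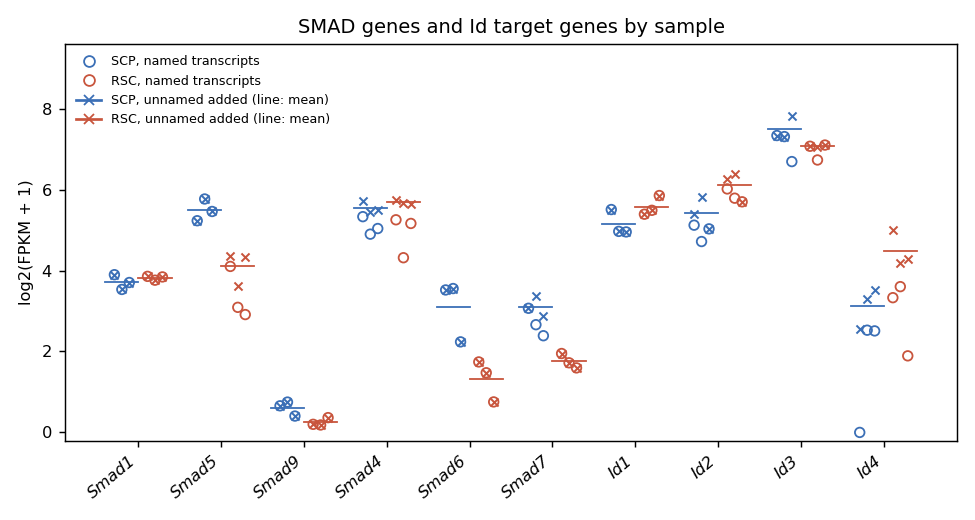
Levels of the SMAD genes and of the Id target genes as log2(FPKM + 1) on the vertical axis in each library, with SCP libraries in blue and RSC libraries in red. Circles are named transcripts, crosses include unnamed transcripts, and lines are group means of the crosses. Smad5, Smad9, Smad6 and Smad7 are lower in every RSC library, and the circles of Id1 and Id3 overlap between the groups.

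The Id genes encode inhibitors of helix-loop-helix transcription factors and are direct targets of BMP-activated SMADs. Id2 was called higher in the RSCs with named transcripts and Id4 with unnamed ones added, while Id1 and Id3 were not called. Id1 was at 44.5, 30.3 and 30.0 FPKM in the SCPs and at 41.0, 43.9 and 56.9 FPKM in the RSCs (log2 difference 0.43, adjusted p = 0.13). Id2 was at 33.8, 25.3 and 31.7 FPKM against 63.8, 54.3 and 51.0 FPKM, and was called higher in the RSCs at 0.88 (SE 0.15, adjusted p = 0.00427). With unnamed transcripts added the Id2 groups overlapped and the difference was 0.70 (adjusted p = 0.0462), so this call depended on the transcripts counted. Id3, the target with the highest mean in both groups, was at 161, 158 and 102 FPKM against 134, 105 and 136 FPKM and overlapped (log2 difference -0.14, adjusted p = 0.603, with a positive sign after median-of-ratios scaling). With unnamed transcripts Id3 was at 161, 158 and 224 against 134, 132 and 136 FPKM, where every SCP library was above every RSC library but the test was not passed (log2 difference -0.41, adjusted p = 0.0386). Id4 was at 0, 4.76 and 4.69 FPKM against 9.06, 11.1 and 2.71 FPKM (adjusted p = 0.263), and with unnamed transcripts at 4.92, 8.78 and 10.4 against 31.1, 17.3 and 18.5 FPKM, where it was higher in the RSCs (log2 difference 1.37, adjusted p = 0.00769).

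Of 77 further symbols of the pathway written as a list, 76 were listed in the tables (Hjv was not, and Hfe2 is the older symbol of the same gene) and 44 passed the filter. Higher in the RSCs were 5 of the 44 and higher in the SCPs were 8, where 18.1% and 22.4% of all genes were. The latter count was 3 to 9 with single libraries left out, where 2317 to 2573 of 12937 to 12984 genes were. Of those higher in the SCPs, Fst, Bmper, Atoh8 and Hand2 had RSC means under 1 FPKM and passed the filter through the SCPs alone. The median log2 difference of the 44 was -0.128 and that of all tested genes -0.169. With unnamed transcripts added, 47 passed the filter, with 9 higher in the RSCs and 15 higher in the SCPs, where 23.2% and 34.2% of all genes were.

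**Figure D5:**
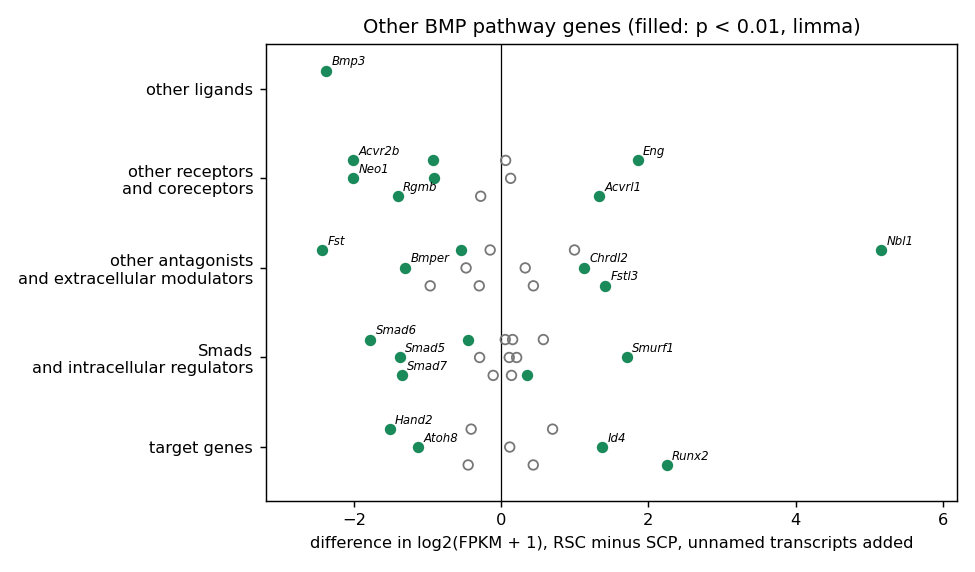
The difference in log2(FPKM + 1), RSC minus SCP, on the horizontal axis for the other BMP pathway genes that passed the filter, with unnamed transcripts added, in rows by role. Filled points passed p under 0.01 and open points did not, and called genes with a difference over 1 in either direction carry their symbol. Nbl1 lies farthest to the right at 5.17.

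Among the 11 other ligands, Bmp3 alone passed the filter, through the SCPs alone, since its RSC mean was 0.309 FPKM. It was at 0.973, 1.85 and 5.73 FPKM in the SCPs and at 0.320, 0.194 and 0.412 FPKM in the RSCs (adjusted p = 0.061), and with unnamed transcripts the SCPs were at 6.08, 5.61 and 5.73 FPKM and the log2 difference was -2.38 (adjusted p = 2.7e-05). The SCP values of Bmp3 were then nearly equal. Gdf3 was the other ligand with the highest mean in the RSCs, at 0.583, 0.178 and 2.08 FPKM, against 0.150 to 0.169 FPKM in the SCPs. Gdf6 was at 1.37, 1.75 and 1.18 FPKM in the SCPs and listed at 0 in all RSC libraries, and it was named after its values were seen.

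Of the other receptors and coreceptors, 9 passed the filter. In each group 1 was higher, where 18.1% of all genes were higher in the RSCs and 22.4% in the SCPs. Eng, which encodes endoglin, a coreceptor known from endothelium, was at 7.05, 13.2 and 12.4 FPKM in the SCPs and at 45.3, 41.7 and 51.2 FPKM in the RSCs (log2 difference 2.02, SE 0.24, adjusted p = 0.00117). Of the 7 endothelial markers 1, Cldn5, was called higher in the RSCs, at 7.98 to 15.16 against 40.02 to 47.15 FPKM. None was called higher in the SCPs. Cdh5, Tek and Vwf were higher in every RSC library without being called, though Cdh5 overlapped with unnamed transcripts added. Pecam1, Kdr and Emcn overlapped between the groups. The 7 summed to 32.6 to 58.2 FPKM in the SCPs and 84.6 to 93.4 FPKM in the RSCs, and their part in the result was not tested. Rgmb, which encodes a coreceptor of the repulsive guidance family, was at 19.2, 22.6 and 59.8 FPKM against 7.89, 9.55 and 7.75 FPKM (log2 difference -1.71, adjusted p = 0.0189), and it missed the threshold after both other scalings and without SCP2 or any RSC library (-1.67 to -1.91). With unnamed transcripts Rgmb was at 61.6, 61.6 and 77.5 against 24.4, 24.4 and 24.4 FPKM, and its log2 difference was -1.41 (adjusted p = 6.7e-05). Acvr2a, a type II receptor gene, was at 0 in the named transcripts of every library and at 13.9, 18.6 and 12.9 FPKM against 8.61, 6.33 and 7.31 FPKM with unnamed ones, so the named transcripts missed it. Acvr2b and the coreceptor gene Neo1 were also called with unnamed transcripts, at log2 differences of -2.01 each. Acvrl1, a type I receptor gene, was called in the other direction, at 3.86, 7.72 and 4.90 against 15.2, 16.5 and 13.1 FPKM and a log2 difference of 1.33. Of the 10 genes of this list that passed the filter with unnamed transcripts, 5 were higher in the SCPs, where 34.2% of all genes were. Higher in the RSCs were 2, where 23.2% of genes were. Acvr2a, Acvr2b, Neo1 and Acvrl1 were named after their values were seen.

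Of the other antagonists and extracellular modulators, 11 passed the filter. Nbl1, which encodes a secreted antagonist of the DAN family to which gremlin 1 also belongs, was at 6.06, 5.91 and 11.7 FPKM in the SCPs and at 343, 315 and 329 FPKM in the RSCs. Every RSC library was far above every SCP library, with a log2 difference of 5.27 (SE 0.25, adjusted p = 4.7e-05), in the opposite direction to Grem1 and Nog. Fst, which encodes follistatin, was at 4.07, 5.06 and 2.99 FPKM against 0.531, 0.228 and 0.726 FPKM (log2 difference -1.75, adjusted p = 0.00296), and Bmper, a BMP-binding modulator gene, at 2.44, 3.32 and 2.05 against 0.466, 0.795 and 0.618 FPKM (-1.14, adjusted p = 0.0102). Bmper missed the threshold without SCP1 (-1.16), SCP2, RSC1 (-1.06) or RSC3 (-1.14) and was at -1.31 (adjusted p = 0.000784) with unnamed transcripts. Fstl1 had the highest mean of this list in the SCPs, at 29.3, 42.3 and 25.7 FPKM, and was at 21.6, 47.4 and 0 FPKM in the RSCs, where the 0 of RSC3 became 109 FPKM with unnamed transcripts and the groups overlapped. The antagonist genes thus included called differences in both directions.

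Of the intracellular regulators, Smurf1, which encodes a ubiquitin ligase that acts on SMAD1 and SMAD5, was at 16.0, 9.43 and 4.22 FPKM in the SCPs and at 53.8, 30.4 and 49.6 FPKM in the RSCs (log2 difference 2.19, SE 0.47, adjusted p = 0.0108). Smurf1 missed the threshold without SCP2, RSC1 or RSC3 (2.03 to 2.24) and was at 1.71 (adjusted p = 4.7e-05) with unnamed transcripts. By named transcripts it was the gene of its list with the highest mean in the RSCs, as Smad5 was in the SCPs, and with unnamed ones added Smad4 had the highest mean in both groups. Of the target genes, Runx2, a regulator of bone formation, was higher in the RSCs at 35.6, 21.5 and 24.1 FPKM against 9.43, 7.95 and 4.10 FPKM in the SCPs (log2 difference 1.81, adjusted p = 0.00584). Hand2, known from limb, heart and sympathetic neurons, was at 2.92, 1.88 and 1.57 FPKM in the SCPs and at 0.157, 0.0719 and 0 FPKM in the RSCs (log2 difference -1.52, adjusted p = 0.00471). Atoh8, a target gene in several cell types, was at 3.95, 2.29 and 2.33 FPKM against 0.959, 0.699 and 0.556 FPKM (log2 difference -1.13, adjusted p = 0.0146), and missed the threshold without SCP1, SCP3, RSC2 or RSC3 (-0.94 to -1.22). The known targets therefore also included called differences in both directions.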

How the data were processed

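Per the labels and the study's methods, RNA from 3 preparations of SCPs and 3 of RSCs was sequenced as paired-end mRNA libraries, mapped to rn6 with TopHat2 2.1.0 and assembled with Cufflinks 2.2.1, with FastQC 0.11.2 among the tools named. The authors deposited a Cufflinks transcript table per library, with FPKM normalized for transcript length and mapped fragments, and with read coverage, the signal used here only for relative depth. The tables hold no counts, so no count test was run. Precision rests on 3 libraries per group, which the study describes as separate sets of experiments.

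FPKM of named transcripts were summed by symbol, and 77 transcripts per table whose symbols had turned into dates were left out. The fit used limma 3.58.1 (R 4.3.3) on the log2(FPKM + 1) scale, as RSC minus SCP, let the variance depend on level and had no block. It was two-sided and took in the 13003 genes averaging 1 FPKM or more. Calls used the study's unadjusted p under 0.01, and p-values were adjusted over the whole fit by the Benjamini-Hochberg method. The fit of unnamed transcripts added without a filter, and its checks, were chosen after seeing the data. The scripts were first tested on simulated data. Promoters were RefSeq windows of 250 bases. Tables were handled with pandas 2.3.3 and drawn with matplotlib 3.10.9.

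The 10 genes, the pathway and marker lists and the thresholds were chosen with earlier results of these data known. Genes named were the 10 BMP genes, the SMAD and Id genes, in each pathway list the 4 with the largest called difference in each direction and the one with the highest mean in each group, and marker genes. In the marker lists not given with the results, of 6 mural markers 1 was higher in the RSCs with named transcripts. Of 5 perineurial markers 2 were higher in each group. With unnamed transcripts added, 2 mural markers were higher in each group, and 2 perineurial markers in the RSCs and 3 in the SCPs. Marker tests had no filter. Of all genes, 13.4% were then higher in the RSCs and 16.8% in the SCPs with named transcripts, and 17.6% and 26.0% with unnamed ones. Alternatives were another pseudocount, filters, scalings, no trend, the replicate block, adjusted p, the highest transcript per gene, unnamed transcripts and leaving out each library.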

Additional observations from a re-analysis of the deposited data

How the results depend on the processing

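The transcripts counted and the filter both moved the counts. Once unnamed transcripts were added, 1 BMP gene was higher in the RSCs, with the filter or without. Other pathway genes higher there numbered 9 (10 without the filter), and of all genes 3251 of 14019 were (3650 of 20731 without the filter). Higher in the SCPs were 5 BMP genes with the filter and 8 without, and 15 and 20 other pathway genes. Of all genes, 4789 of 14019 and 5385 of 20731 were. With named transcripts and no filter, 5 BMP and 13 other pathway genes were higher in the SCPs, where 16.8% of all genes were. With a mean of at least 5 FPKM, 3 BMP genes were left to test, and 0 of them were higher in the SCPs or past 4-fold. Of the other pathway genes 2 were higher in the SCPs, and of all 8606 genes 2356 were, 356 of them past 4-fold. A pseudocount of 0.1 put 2 BMP genes past 4-fold in the SCPs, where 715 of 13003 genes were. Other pathway genes higher in the SCPs numbered 5 after median-of-ratios scaling and 3 at an adjusted p under 0.01, where 2130 and 2153 of 13003 genes were.

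Leaving out single libraries gave 2 to 3 BMP genes higher in the SCPs and 0 in the RSCs, of 6 to 8 tested. Of all genes, 2317 to 2573 were higher in the SCPs and 2019 to 2262 in the RSCs, of 12937 to 12984. Past 4-fold in the SCPs were 0 to 2 BMP genes (0 without SCP1, 2 without SCP3) and 458 to 516 of all genes. Other pathway genes higher in the SCPs numbered 3 to 9, with 3 without SCP1, SCP2 or RSC3, 4 without RSC1 and 5 without RSC2. Signs of log2 differences turned for genes that did not pass. Leaving out single libraries gave -0.027 (without SCP3) to 0.386 for Bmp7, -0.648 to 0.070 for Bmpr1a, -0.35 to 0.119 for Smad4 and -2.781 to 0.018 for Fstl1. Bmpr1a was at 0.055 after median-of-ratios scaling and at 0.069, 0.070 and 0.041 without SCP1, SCP2 and RSC1. Smad4 was at 0.056 after that scaling, 0.139 with unnamed transcripts, filtered or not, and 0.119 without RSC2. Id3 was at 0.095 after that scaling, and Fstl1 at 0.018 without RSC3. The cause of these turns was not tested.

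The replicate number as a block left 2253 of all 13003 genes higher in the SCPs and 2022 in the RSCs. Of the BMP genes 2 were higher in the SCPs and 0 in the RSCs, and 4 other pathway genes were higher in the SCPs. No pairing by replicate number was seen, as deviations of libraries with the same number correlated at -0.00 to 0.04. With 3 libraries per group this cannot exclude a pairing. A call lost there keeps its log2 difference, as for Smad7 at -0.951 with and without the block. With unnamed transcripts and no filter, the block left 6 BMP genes higher in the SCPs and 1 in the RSCs, where 22.7% and 16.1% of genes were.

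Median-of-ratios scaling moved the median difference of all genes from -0.17 to 0.03 and the share of calls higher in the RSCs from 44.6% to 57.0%. The Bmpr1a and Bmpr2 differences with unnamed transcripts no longer passed after it. Unknown depth means that a gene listed at 0 has no detection limit here.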
